A study of Gossypium hirsutum with 3 samples.

Results

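The genes described here are the cotton homeologs that lie on chromosome A02 in the A subgenome and on chromosome D03 in the D subgenome. They were chosen by the position in their identifiers, from the homeologous pairs that the study listed, and no expression value entered the choice beyond the one already used to make that list. Of 2580 pairs used here, 303 had an A02 gene with a D03 homeolog, out of 889 pairs with an A02 gene. The comparison set was the 574 A02 pairs whose homeolog lies on D02, the chromosome that corresponds to A02 by number. The tables of pairs were used as far as gene Gh_A02G1472, and what lies beyond it on A02 was not analysed here. Of the 303 pairs, 301 come from the study's list of pairs expressed in leaf, and only 2 from its other list alone. Pairs silent in leaf are therefore hardly covered among them, unlike among the pairs on D02. That other list added no pair from Gh_A02G0934 on. It may thus have been used over a shorter part of A02 than the list of expressed pairs.

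Gossypium hirsutum (upland cotton) is an allotetraploid: its cells carry an A and a D subgenome that came together from different diploid parents, so most genes exist as a pair of homeologs, one in each subgenome. A and D chromosomes of the same number usually carry the same genes in the same order. A known reciprocal translocation between A02 and A03 broke this rule in the A subgenome and placed genes on A02 whose homeologs sit on D03. These genes therefore changed their chromosome but kept their subgenome. A pair is called A-biased or D-biased when one homeolog gives more transcript than the other.

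All values come from 1 condition: leaves of the cultivar TM-1, the standard genetic line of upland cotton, taken as true leaves from greenhouse plants of 20 days with no treatment. Leaf mRNA was sequenced in 3 replicate libraries, and expression was given as FPKM, the number of fragments per kilobase of transcript, scaled to the mapped fragments of the library. Each library held 70478 genes, with 40027 to 41165 of them at an FPKM of 1 or more, and the libraries ranked genes alike (Spearman's rho 0.981 to 0.987). Nothing in the sources says whether the replicates came from separate plants, so a p-value below measures the spread between these libraries, which may be technical. The identifiers were paired with no gene names (0 of those in the pairs matched the RefSeq gene table), so leaf marker genes could not be looked up, genes are named by identifier, and a function is given only where the study assigned a transcription factor family.

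The A02 genes with D03 homeologs formed 1 block. Gene Gh_A02G0933 had its homeolog on D02, and from the next gene, Gh_A02G0934, to the last one analysed, Gh_A02G1472, 301 of the 308 A02 genes with a listed homeolog had it on D03. The other 2 pairs stood apart, side by side, far inside the part of A02 that matches D02. They were Gh_A02G0350 with Gh_D03G0880 and Gh_A02G0351 with Gh_D03G0879. All 4 of their genes were listed at 0 in all 3 libraries, and neither pair could be tested.

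**Figure D1:**
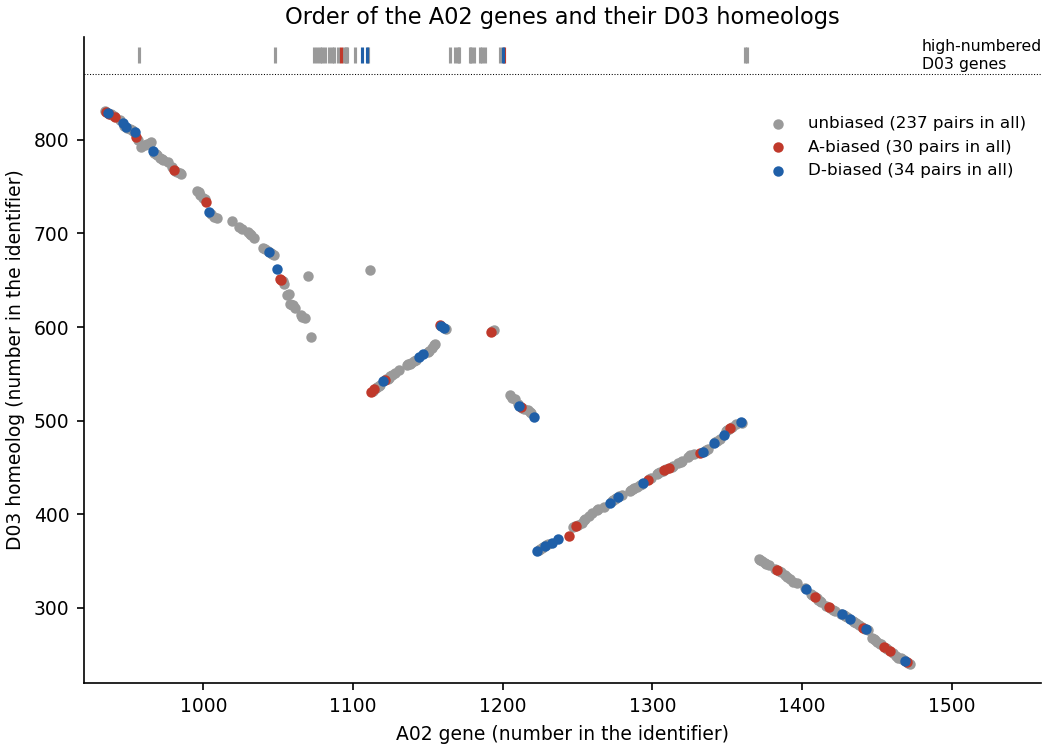
Order of the A02 genes (horizontal axis, number in the identifier) and of their D03 homeologs (vertical axis, number in the identifier) for the 301 tested pairs, coloured by call. Ticks in the strip at the top mark the 34 pairs with a high-numbered D03 gene, whose own height is not to scale. Below the strip, all but 3 points fall on 5 runs, 3 descending and 2 ascending, and both kinds of bias occur in each run. The second run, which ascends, holds a short descending stretch from Gh_A02G1158 to Gh_A02G1192.

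Within the block the D03 homeologs did not follow a single order (the plot of gene order). Identifiers were read as positions, and a run was a stretch in which the D03 number went in one direction with steps of at most 30, where steps back of up to 5 were allowed. There were 5 runs of 10 or more pairs, which held 264 of the 301 pairs. The first and longest run went from Gh_A02G0934 to Gh_A02G1068 and faced Gh_D03G0831 to Gh_D03G0610 in opposite order, with 76 pairs and 70 of 75 steps in the direction of the run. The second went from Gh_A02G1112 to Gh_A02G1194 in the same order as Gh_D03G0531 to Gh_D03G0597, with 36 pairs and 31 of 35 steps in its direction, the others lying together from Gh_A02G1158 to Gh_A02G1192. The third, a short run of 12 pairs from Gh_A02G1205 to Gh_A02G1221, faced Gh_D03G0527 to Gh_D03G0504 in opposite order. The fourth, Gh_A02G1223 to Gh_A02G1360, matched Gh_D03G0361 to Gh_D03G0498 in the same order over 75 pairs, and the fifth, Gh_A02G1371 to Gh_A02G1472, faced Gh_D03G0352 to Gh_D03G0240 in opposite order over 65 pairs with all 64 steps in the run's direction. By contrast, the A02 pairs with D02 homeologs formed 3 runs of this size, of 421, 20 and 20 pairs, and each ran in the same order in both subgenomes, except for a stretch from Gh_A02G0911 to Gh_A02G0919 in the last run that went the opposite way.

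The 34 pairs with high-numbered D03 genes, Gh_D03G1692 to Gh_D03G1798, left the numbering of the runs but were not scattered. Under a looser rule chosen after the order was seen, 31 of them lay in 6 short stretches of their own. The longest stretch held 11 pairs, from Gh_A02G1079 with Gh_D03G1752 to Gh_A02G1101 with Gh_D03G1733, in opposite order. The next held 9 pairs, from Gh_A02G1165 with Gh_D03G1776 to Gh_A02G1186 with Gh_D03G1796, in the same order. The former lay between the first and the second run, and the latter inside the second run, between Gh_A02G1162 and Gh_A02G1192. Pairs of this kind were also found on D02, for example Gh_A02G0210 with Gh_D02G2385 and Gh_A02G0341 with Gh_D02G2389. Those too were set apart from the runs.

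Expression in the block was nearly even between the subgenomes. Over the 301 tested pairs the median FPKM was 6.48 for the A02 genes and 6.50 for the D03 genes, and the median log2 ratio of D over A was -0.0055 with quartiles of -0.53 and 0.54. Here and below the log2 ratio was taken after adding 0.42 to each FPKM, so differences between genes of low FPKM come out too small. Leaves hold several cell types, and in such bulk samples fewer cells of a type and less RNA per cell cannot be told apart. In single libraries the D03 homeolog was the higher one in 147 to 149 of 301 pairs. Of the A02 genes 22 had a mean FPKM below 1, 174 lay between 1 and 10, and 105 were at 10 or more, against 14, 187 and 100 of the D03 genes. The study's list required an FPKM of 1 or more in one homeolog of these same libraries, so low levels are under-represented by construction, and the pair nearest this limit was Gh_A02G1304 (0.415) with Gh_D03G0444 (1.03). The level of the A gene went with that of its D homeolog over the pairs (Pearson's r 0.828, Spearman's rho 0.816), a description across genes that share their libraries.

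**Figure D2:**
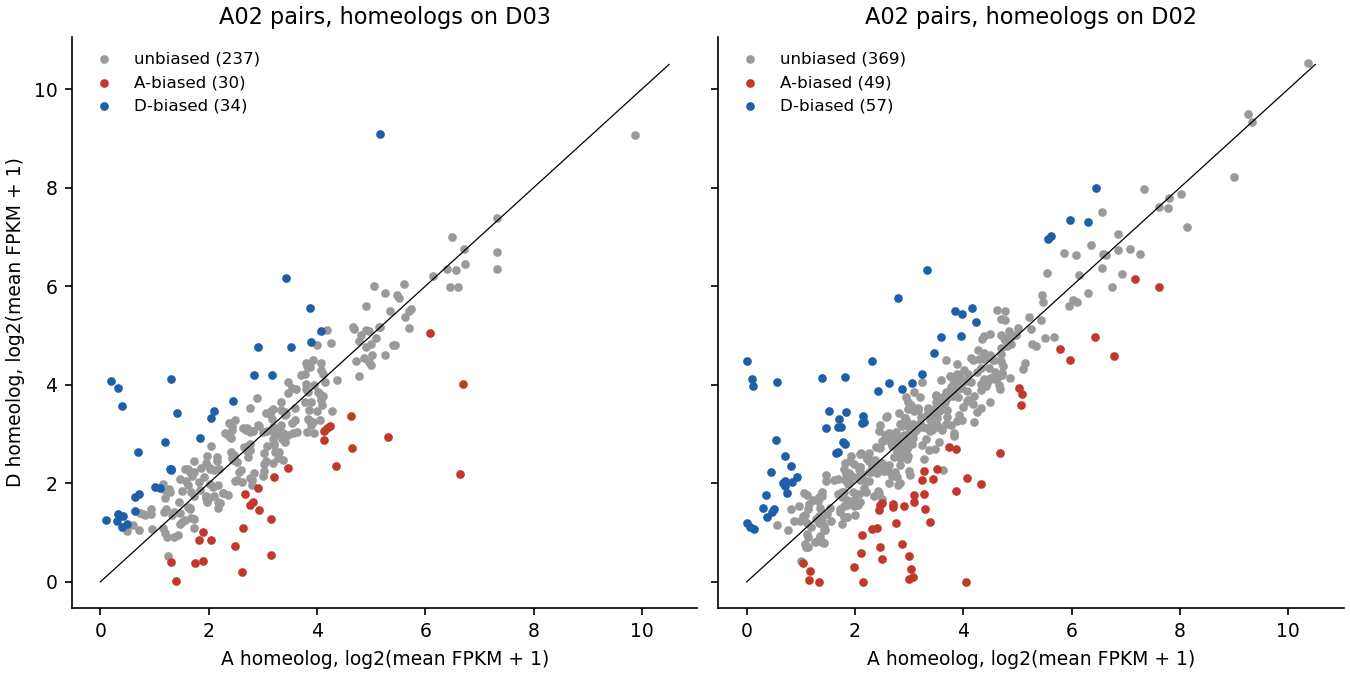
Level of the D homeolog (vertical axis) against that of the A homeolog (horizontal axis), each as log2 of the mean FPKM of 3 libraries plus 1, for the 301 A02 pairs on D03 (left) and the 475 on D02 (right); the line marks equal levels. Biased pairs lie on both sides of the line in both sets, with 30 A-biased and 34 D-biased pairs on the left.

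The mean log2 ratio of D over A in the block was 0.0176, 0.0101 and 0.0096 in libraries 1, 2 and 3, or 0.0125 ± 0.0045 (SD, n = 3). All 3 values were above 0, but an exact sign-flip permutation test over 3 libraries cannot give a two-sided p below 0.25, the value it gave here. The sign did not hold under other ways of averaging, since centring each column on its median turned the mean to -0.0355 and the median over pairs in place of the mean gave -0.0284. Against the A02 pairs on D02 (mean -0.0028 ± 0.0140 SD, n = 3) the ratio was higher by 0.0143, 0.0290 and 0.0026, a gap of 0.0153 ± 0.0132 with the same smallest exact p of 0.25. This gap also turned, to -0.0173 among pairs with an FPKM of 10 or more and to -0.0243 with medians, and with a pseudocount of 1 it was 0.0030 with libraries on both sides of 0.

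Summed FPKM was set to a large extent by 2 pairs. The A02 genes summed to 5214, 5330 and 5122 FPKM and the D03 genes to 5095, 5108 and 4970, a ratio of D to A of 0.969 ± 0.0095 (SD, n = 3). Without the pair of Gh_A02G1268, the highest of the block, the ratio was 1.06 ± 0.0087. Without that of Gh_A02G1106, which had the largest excess of D, it was 0.870 ± 0.0053, and without both it was 0.936 ± 0.0097. These alternatives were added after the data were seen, and the side to which the sum leaned depended on which of these pairs was counted. For the A02 pairs on D02 it was 1.02 ± 0.0072.

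The pairs of the block had a lower mean level than the A02 pairs on D02. The mean log2(FPKM + 1) over both homeologs was 3.06, 3.07 and 2.96 in the 3 libraries, against 3.22, 3.23 and 3.13 for the pairs on D02. The gap was -0.163 ± 0.0074 (SD, n = 3), with the block lower in 3 of 3 libraries and an exact sign-flip p of 0.25, again the smallest possible. This SD is over libraries that hold the same pairs, so it does not measure the spread between pairs. The gap was found for both homeologs: the A genes averaged 3.03 against 3.19 and the D genes 3.03 against 3.19. Both sets were limited to the study's list of expressed pairs for this comparison. Adding the A02 pairs on D02 that come from the study's other list turned the gap to 0.358, since that list brings in pairs with little or no expression in leaf. That list added no pair to the block, so this last gap compares unlike sets.

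A pair was called biased where limma gave a Benjamini-Hochberg adjusted p under 0.05 over the 1999 expressed pairs of the fit and the log2 ratio was at least 1 in either direction. These 1999 pairs, the background used here, have their A gene on A01 or A02 only and include the block and the pairs on D02. By this rule 30 pairs of the block (9.97%) were A-biased and 34 (11.3%) D-biased, beside 10.8% and 13.3% of all pairs tested. The total of 64 biased pairs (21.3%) lay a little under the background of 24.0% and near the 106 of 475 (22.3%) found for the pairs on D02. The values of the homeologs did not overlap over the libraries in 202 pairs, 101 with D above A and 101 with A above D (33.6% each), while the backgrounds were 32.3% and 30.1%. The counts of bias therefore stayed close to the background in both directions.

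Fewer pairs of the block than of those on D02 lay close to equality, by a measure added after the data were seen and without a test that could pass a threshold. In the block 137 of 301 pairs (45.5%) had a log2 ratio within 0.5 of equality, against 260 of 475 (54.7%) on D02 and 50.3% of all pairs tested. The median size of the log2 ratio, without its sign, was 0.551, 0.510 and 0.525 in libraries 1, 2 and 3 of the block and 0.463, 0.442 and 0.446 for the pairs on D02. The gap was 0.0782 ± 0.0100 (SD, n = 3), in the same direction in 3 of 3 libraries, with an exact sign-flip p of 0.25, the smallest possible. This SD is over libraries that hold the same pairs, so it does not measure the spread between pairs. Over all pairs tested the median size was 0.508, so the block lay above and the D02 pairs below it. An adjusted limma p under 0.05 with a log2 ratio short of 1 was found in 113 pairs of the block (37.5%), 147 on D02 (30.9%) and 31.7% of all pairs.

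In 3 of the 4 pairs with the strongest D bias the A02 gene was nearly silent (the plot of the largest biases). Gh_A02G1233 had an FPKM of 0.174, 0.284 and 0, whereas its homeolog Gh_D03G0369 had 16.9, 15.1 and 16.0 (log2 ratio 4.87, SE 0.19, limma adjusted p = 1.2e-06). Gh_A02G1221 was at 0.210, 0.333 and 0.203 and Gh_D03G0504 at 14.8, 15.5 and 12.6, a 57.4-fold difference of the means (log2 ratio 4.46). Gh_A02G1277 was at 0.368, 0.339 and 0.253 and Gh_D03G0418 at 9.44, 11.6 and 11.7, a 34.0-fold difference (log2 ratio 3.93). These folds were taken without the added 0.42 and divide by A means of only 0.249 and 0.320 FPKM, so their size is uncertain. In all 3 pairs every D value lay far above every A value.

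The most abundant transcript among the D-biased pairs came from Gh_D03G1761, one of the high-numbered genes. It had an FPKM of 558, 505 and 570, while Gh_A02G1106 had 34.3, 30.4 and 39.4, so the D03 gene was 15.7-fold higher (log2 ratio 3.96, SE 0.13, limma adjusted p = 5.6e-07) although the A02 gene was itself above most genes of the block. Gh_D03G0320 (14.8, 14.5 and 20.0) exceeded Gh_A02G1403 (1.61, 1.2 and 1.62) 11.2-fold.

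**Figure D3:**
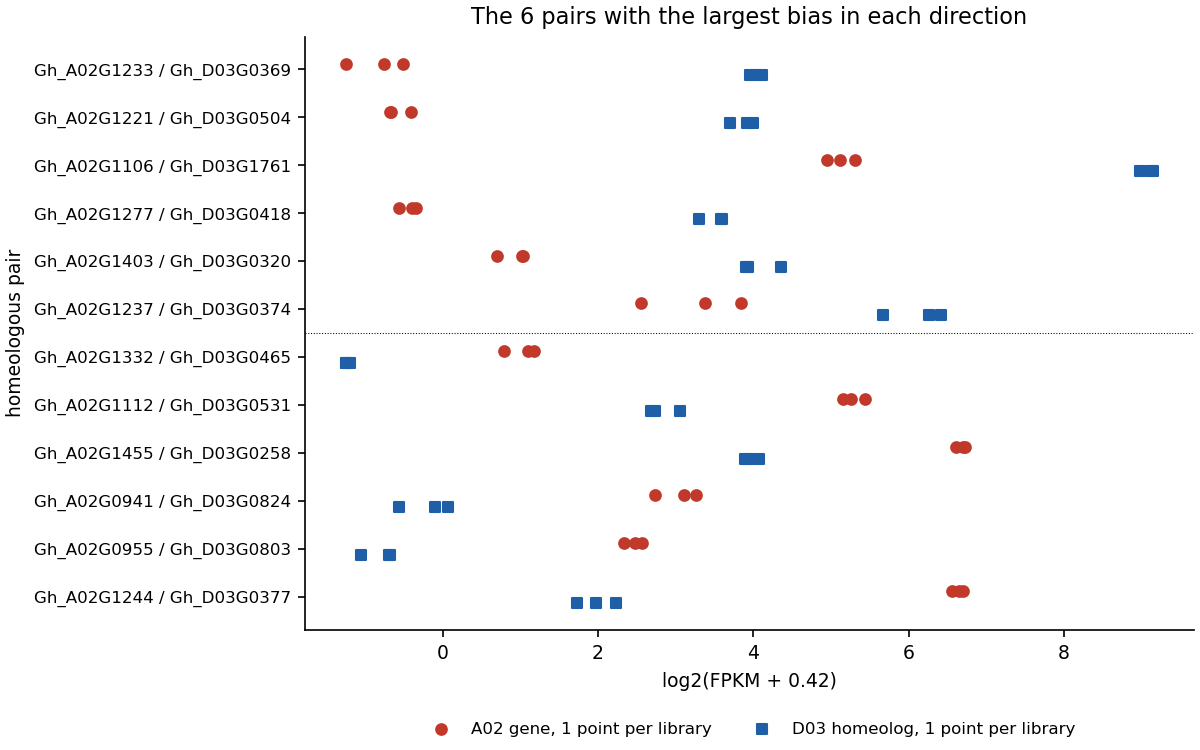
Expression of the 6 D-biased and 6 A-biased pairs with the largest log2 ratio whose values do not overlap, as log2(FPKM + 0.42) on the horizontal axis, with 1 point per library (circles, A02 gene; squares, D03 homeolog). The 3 libraries of a gene lie close together compared with the distance between homeologs; the widest spread is that of Gh_A02G1237, from 5.46 to 13.9 FPKM.

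The strongest A bias was that of Gh_A02G1244, with an FPKM of 103, 93.9 and 100 against 3.51, 2.91 and 4.26 for Gh_D03G0377, a 27.8-fold difference (log2 ratio -4.66, SE 0.14, limma adjusted p = 5.5e-07). Gh_A02G0955 was at 5.5, 5.17 and 4.61, and its homeolog Gh_D03G0803 was close to silent at 0.0615, 0.197 and 0.203. Gh_A02G1112, which opens the second run, was at 37.8, 43.1 and 35.2 against 5.99, 6.22 and 7.89 for Gh_D03G0531. Gh_A02G1332 was low, at 1.72, 1.83 and 1.30, and its homeolog Gh_D03G0465 was listed at 0 in libraries 1 and 3 and at 0.0168 in library 2, so no fold is given. All 4 pairs were without overlap between the homeologs.

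The lower homeolog averaged under 1 FPKM in 9 of 30 pairs biased to A and in 13 of 34 biased to D. The median size of the log2 ratio was 1.55 in the A-biased and 1.42 in the D-biased pairs of the block, beside 1.61 and 1.55 in those on D02. A log2 ratio beyond 2 was reached by 11 A-biased and 8 D-biased pairs of 301, by 19 and 15 of the 475 on D02, and by 70 and 76 of all 1999. Most biased pairs of the block thus had both homeologs at 1 FPKM or more.

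The pairs with the highest expression were unbiased by the rule, with the exception of Gh_A02G1106. The top pair was Gh_A02G1268 (940, 1006 and 868) with Gh_D03G0408 (541, 565 and 502). Its A gene was higher in every library without overlap, 1.75-fold by the means, and the log2 ratio of -0.81 (SE 0.11, limma adjusted p = 0.00060) stayed under the fold threshold. Gh_A02G1471 (155, 151 and 173) was 1.97-fold above Gh_D03G0241 (78.9, 80.7 and 83.2), just short of the threshold at -0.97. It passed without library 2, at -1.01, and with centred columns, at -1.02. Gh_A02G1337 (161, 158 and 160) was above Gh_D03G0470 (98.7, 105 and 104) with a log2 ratio of -0.64.

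In contrast, the values of 2 abundant pairs overlapped. Gh_A02G1070 was at 158, 160 and 158 and Gh_D03G0654 at 170, 174 and 157 (log2 ratio 0.07, SE 0.10, limma adjusted p = 0.56). Gh_A02G1320 was at 103, 104 and 105 and Gh_D03G0457 at 106, 109 and 104 (log2 ratio 0.03, SE 0.09, limma adjusted p = 0.80).

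Transcription factors are proteins that bind DNA and set the transcription of other genes. The study listed 5 biased ones among these pairs. They were listed for their bias in these libraries, so their calls are not independent evidence and follow from the choice. The A02 homeolog was the higher one in 3 of them. The NAC gene Gh_A02G0941, of a plant family known for roles in development, stress and leaf senescence, was at 8.22, 9.18 and 6.23. Its homeolog Gh_D03G0824 was at 0.517, 0.627 and 0.259, a 16.8-fold difference of the means without the pseudocount (log2 ratio -3.23). The PLATZ gene Gh_A02G1212, of a plant family of zinc-dependent proteins that bind AT-rich DNA, was at 18.9, 16.9 and 22.8 against 3.34, 4.58 and 4.44 for Gh_D03G0515. The zinc finger homeodomain (zf-HD) gene Gh_A02G1249 was at 10.02, 9.05 and 11.03 against 3.62, 3.67 and 4.65 for Gh_D03G0388. The homeologs did not overlap in any of these pairs.

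The D03 homeolog was the higher one in the other 2. The homeodomain leucine zipper gene Gh_D03G0374, of a family with roles in plant development and responses to the environment, was at 76.2, 85.3 and 50.7 against 5.46, 13.9 and 9.94 for Gh_A02G1237 (7.25-fold; log2 ratio 2.86, SE 0.34, limma adjusted p = 0.00031), with the largest SE among the 12 pairs of largest bias. The CPP gene Gh_D03G1762, of a family of cysteine-rich DNA-binding proteins, was at 3.67, 5.20 and 2.70 against 1.54, 1.66 and 1.22 for Gh_A02G1109 (log2 ratio 1.14, limma adjusted p = 0.0033). This last call was not stable: the log2 ratio was 0.99 without library 2 and 0.95 with a pseudocount of 1.

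The blue module, a set of co-expressed biased genes that the study tied to leaf, held 5 genes of these pairs, among them the CPP gene above. It too was chosen on related data. Gh_A02G1455 was at 97.0, 104 and 105 against 14.4, 16.4 and 14.9 for Gh_D03G0258 (6.70-fold, limma adjusted p = 1.0e-06), without overlap. Gh_A02G1470 was at 17.3, 16.3 and 16.0 against 8.56, 5.72 and 7.80 for Gh_D03G0242, and its log2 ratio of -1.14 went to -0.99 without library 2. Gh_D03G0829 was at 26.8, 29.7 and 22.2 against 6.70, 6.84 and 5.95 for Gh_A02G0936. Gh_D03G0293 was at 2.78, 2.06 and 2.12 against 0.637, 0.583 and 0.468 for Gh_A02G1427. The module thus held 2 pairs with the A02 gene higher and 3 with the D03 gene higher.

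The study also set apart genes with a broad domain of H3K4me3, a histone mark found at the start of transcribed genes. Its Cluster 1 has the broad domain in the promoter, and its Cluster 3 in the gene body. Only the A-subgenome genes of Cluster 1 were looked up here, and 23 of the tested pairs had such an A02 gene. Of these, 1 was A-biased and 3 were D-biased (17.4%), against 29 and 31 of the other 278 pairs (21.6%). The median log2 ratio was 0.129 against -0.012. The other 278 pairs may include genes of Cluster 3, so they are not a set without broad H3K4me3. Their A02 genes ranged from 0.641 to 33.1 FPKM with a median of 6.49, near the 6.48 of the other pairs. The 4 called pairs were Gh_A02G0935 (-1.36), Gh_A02G0936 (1.94), Gh_A02G1044 (1.29) and Gh_A02G1348 (1.42), given here as log2 ratios.

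**Figure D4:**
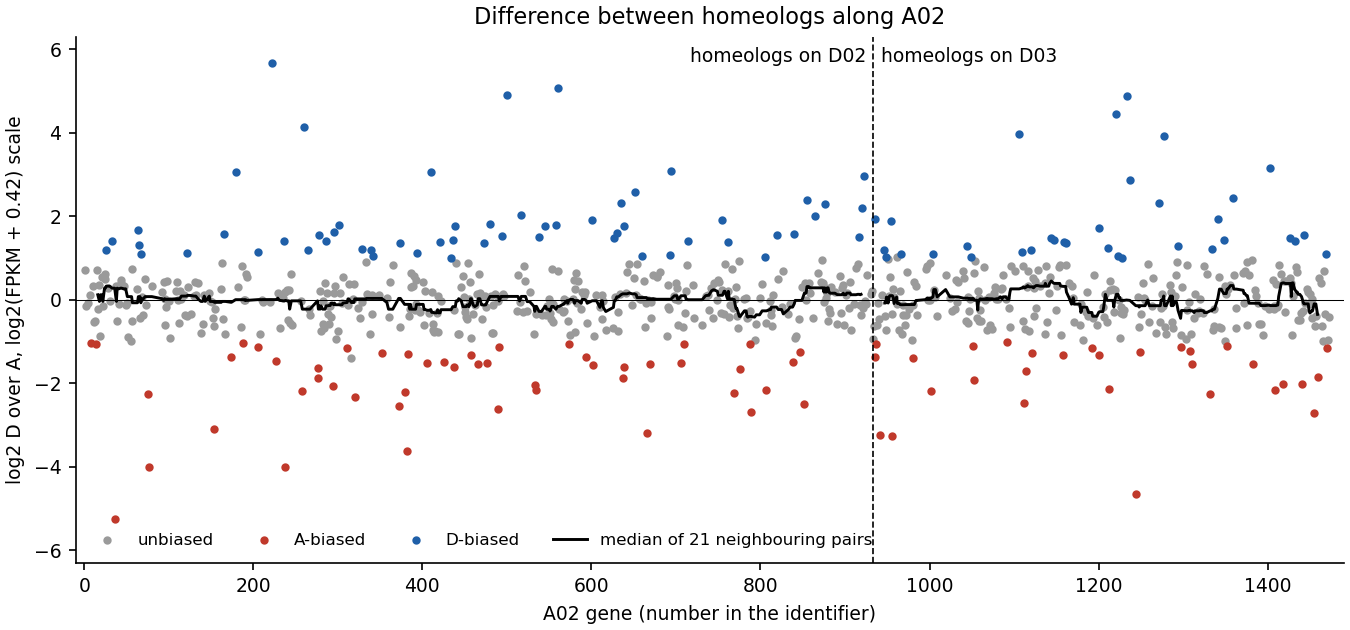
Log2 ratio of D over A (vertical axis, log2(FPKM + 0.42) scale) of the tested pairs along A02 (horizontal axis, number in the identifier), coloured by call, with the median of 21 neighbouring pairs as a line. The dashed line marks the change from D02 to D03 homeologs; the single D02 pair inside the block is not drawn. The running median stays between -0.444 and 0.450 in the block and between -0.416 and 0.327 before it.

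Along the block, biased pairs of both directions were mixed (the plot along A02). The median of 21 neighbouring pairs ranged from -0.444 around Gh_A02G1297 to 0.450 around Gh_A02G1144 and was above 0 in 142 of 281 windows. For the pairs on D02 it ranged from -0.416 to 0.327 and was above 0 in 234 of 455 windows. The log2 ratio of a pair showed little relation to that of the next pair (Pearson's r -0.028, Spearman's rho -0.042 over 300 neighbours in the block, and r 0.0056 over 474 on D02), a description over pairs that share their libraries.

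In 19 cases both of a pair of neighbours were biased, in the same direction in 6 and in opposite directions in 13. For the pairs on D02 the numbers were 12 and 15 of 27. Near the start of the block, the log2 ratio was -1.36 for Gh_A02G0935, 1.94 for Gh_A02G0936 and -1.07 for Gh_A02G0937, which are consecutive genes. Likewise, D-biased Gh_A02G0954 (1.88) stood next to A-biased Gh_A02G0955 (-3.27), Gh_A02G1200 (1.72) next to Gh_A02G1201 (-1.31), and Gh_A02G1211 (1.23) next to the PLATZ gene Gh_A02G1212 (-2.13).

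The sharpest such change lay in the fourth run, in a stretch singled out after its values were seen. There Gh_A02G1233 (4.87) and Gh_A02G1237 (2.86) were D-biased and the next A02 pair on D03, Gh_A02G1244 (-4.66), was A-biased. With the pseudocount of 0.42, the largest bias of the block in each direction thus came within 12 consecutive A02 identifiers. This depended on the pseudocount, since with 1 the D bias of Gh_A02G1106 (3.94), outside this stretch, was ahead of that of Gh_A02G1233 (3.89). Between Gh_A02G1233 and Gh_A02G1244 lay the most abundant A02 genes of the block after Gh_A02G1268. Gh_A02G1234 had an FPKM of 565, 534 and 656 and was in no pair used here. Gh_A02G1235 had 631, 618 and 748 and was listed with a gene of D05, Gh_D05G2150, at 204, 212 and 274. At the matching place of D03, between Gh_D03G0369 and Gh_D03G0374, lay Gh_D03G0370 (659, 741 and 847) and Gh_D03G0371 (826, 818 and 1028). These D03 genes were in no pair used here, and pairs with A chromosomes other than A01 and A02 were not used. Both chromosomes thus carried 2 neighbouring abundant genes here, none of which entered the block as an A02 pair on D03. Whether they are homeologs was not tested.

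Runs in the same and in the opposite order both held pairs biased in each direction (the plot by run). The first run had 8 A-biased and 8 D-biased pairs (21.1%) and a median log2 ratio of -0.036. The second had 5 and 5 (27.8%) with a median of 0.324, the highest of the runs, although its mean was only 0.082 ± 0.039 (SD over 3 libraries). The third had 1 and 2 of 12. The fourth had 7 and 11 (24.0%) with a median of -0.141 and a mean of 0.054 ± 0.029, opposite in sign. The fifth had 7 and 5 (18.5%) with a median of -0.083. Among the 34 high-numbered pairs 2 were A-biased and 3 D-biased (14.7%), with a median of 0.025. These shares are to be read beside the 24.0% of all tested pairs, and the differences between runs were not tested.

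**Figure D5:**
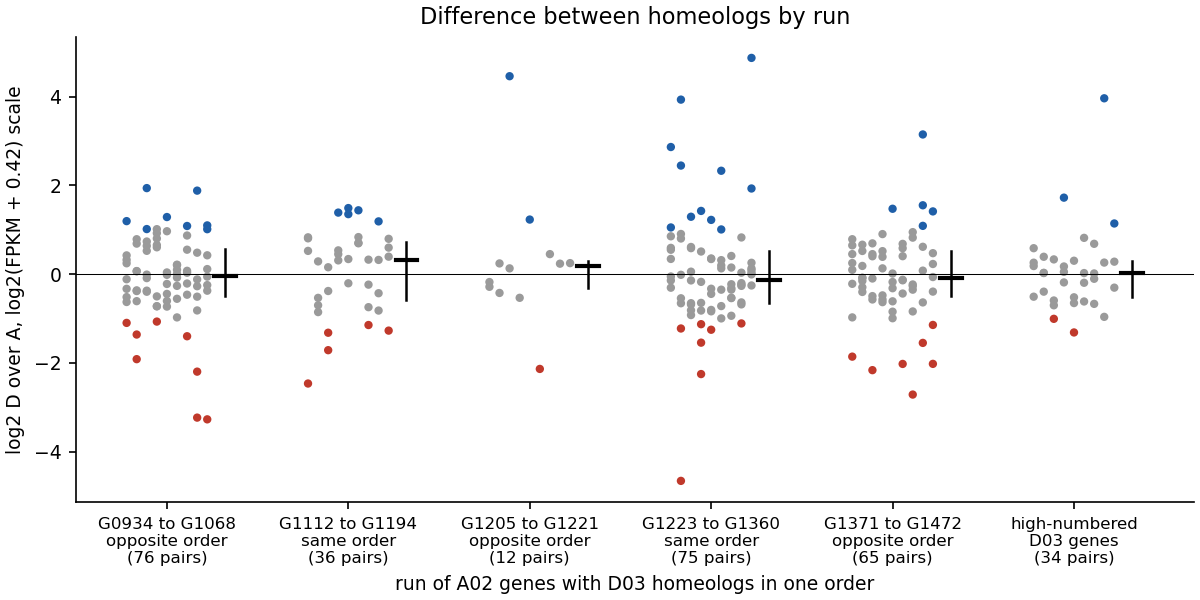
Log2 ratio of D over A (vertical axis, log2(FPKM + 0.42) scale) of the pairs of each run of gene order (horizontal axis), with 1 point per pair in red for A-biased, blue for D-biased and grey for unbiased pairs. The thick bar gives the median and the thin line the quartiles; medians go from -0.141 in the fourth run to 0.324 in the second.

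Each run's pair of largest bias was also compared with the pairs at its ends. The first run opened with Gh_A02G0934 (29.0, 26.4 and 23.9) above Gh_D03G0831 (17.4, 18.6 and 14.997), with a log2 ratio of -0.63, and ended with Gh_A02G1068 above Gh_D03G0610 at -0.72, both unbiased. Its largest bias was that of Gh_A02G0955. The second run ended with Gh_A02G1194 at 0.60 and the third opened with Gh_A02G1205 at -0.18, both unbiased, while Gh_A02G1221 at the end of the third run was its most biased pair at 4.46. The fourth run opened with Gh_A02G1223 (15.4, 18.2 and 13.8), D-biased at 1.05 against Gh_D03G0361 (34.8, 34.3 and 30.2), and ended unbiased with Gh_A02G1360 at 0.59. The fifth went from Gh_A02G1371 at 0.65 to Gh_A02G1472 at -0.40, and its largest bias was that of Gh_A02G1403 at 3.15.

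At the change from D02 to D03 homeologs, the last 21 pairs before it held 0 A-biased and 3 D-biased pairs by limma and the first 21 pairs after it 4 and 4, beside 10.8% and 13.3% of all pairs tested. The median log2 ratio was 0.121 before and -0.077 after. The mean was 0.314 ± 0.030 before and -0.193 ± 0.040 after (SD over 3 libraries). The running median along A02 moves over a similar range elsewhere, and no running mean was taken. The values at the junction are therefore a description only.

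Inside the block, 7 A02 genes had their listed homeolog on another chromosome than D03, and 5 of these pairs were biased, beside 24.0% of all pairs tested. Gh_A02G1242 was at 16.0, 18.8 and 12.2 while its homeolog Gh_D10G0983 was at 0, 0.0834 and 0.0356 (log2 ratio -5.11, SE 0.17, limma adjusted p = 6.2e-07), a larger ratio than in any A02 pair on D03. Gh_A02G1091 and Gh_A02G1235 were A-biased as well, and Gh_A02G0987 and Gh_A02G1067 were D-biased.

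Many A02 genes of the block were in no pair used here, and these are called unlisted. Of 539 identifiers from Gh_A02G0934 to Gh_A02G1472, 231 were unlisted. Of these, 41 (17.7%) had a mean FPKM of 1 or more, 11 reached 10, and 93 were listed at 0 in every library. Before the block 82 of 352 unlisted A02 genes (23.3%) reached 1. The shares of 17.7% and 23.3% are not like for like. In the block every listed pair came from the study's list of expressed pairs. Before it, the other list added pairs with little or no expression. A pair silent in leaf thus counts as unlisted in the block but can be listed before it. Unlisted genes held 16.2% of the summed FPKM of the A02 genes in the block, with Gh_A02G1234 the highest at a mean of 585, against 10.02% before the block. On D03, between the outermost ordered homeologs, 83 of 325 genes in no pair used here (25.5%) reached 1. These 325 genes held 42.1% of the summed FPKM. Only pairs with an A01 or A02 gene were used, so D03 genes paired with another A chromosome would be counted among them. Of their summed 3042 FPKM, Gh_D03G0371 and its neighbour Gh_D03G0370 had means of 890 and 749.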

How the data were processed

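Per the labels and the study's methods, the authors used fastp to remove bases under quality 25 and reads under 20 bp, HISAT2 to map to the TM-1 genome, and StringTie with the CottonGen gene models to obtain FPKM; SAMtools is also named, and versions are not given in the sources used here. How reads that fit both homeologs were assigned, and whether strand was used, is not given either, so values of near-identical homeologs are uncertain. The deposited FPKM values hold no counts, and the read totals of the libraries were not used here; the commonest ratio of low FPKM values between libraries was 0.96 to 1.04. Summed FPKM was 941105, 942419 and 1012480.

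Pairs were taken by identifier from 2 tables of the study, 1 of which lists pairs expressed in these libraries; both were used for A01 and A02 only. The 1999 pairs with a mean FPKM of 1 or more in a homeolog entered a limma 3.58.1 fit under R 4.3.3, on the log2 of FPKM plus 0.42, contrasting D with A without a block, with Benjamini-Hochberg adjustment. The pseudocount came from an earlier analysis, which had fitted it to the study's own fold changes. A and D values of a pair come from the same library; their deviations correlated at 0.185, 0.555 and 0.618 in libraries 1 to 3, and the block is among the alternatives. The fit was tested on simulated data. Values per library were compared by exact sign-flip tests (scipy 1.17.1). The named pairs were the 6 with the largest bias without overlap in each direction, the 4 highest by the lower and the 4 highest by the higher homeolog, members of the transcription factor and blue module lists, pairs outside the block, and the first, last and most biased pair of each run; others were named after their values were seen. Members and lists were chosen with earlier results of these data known. Alternatives were other pseudocounts, filters, centring, thresholds, limma's trend, the block, other sets of pairs and leaving out each library. ChIP-seq was not analysed here.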

Additional observations from a re-analysis of the deposited data

How the results depend on the processing

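Counts of biased pairs depended most on thresholds. An FPKM minimum of 10 left 12 A-biased and 15 D-biased pairs, a log2 ratio of at least 1.5 left 16 and 13, and the adjusted p alone gave 87 and 90. A pseudocount of 1 gave 25 and 24, one of 0.1 gave 34 and 38, and centring gave 35 and 31. The replicate block gave 30 and 35, lost no call and added Gh_A02G0962. Leaving out 1 library gave 28 to 33 A-biased and 31 to 34 D-biased pairs, with 33 and 31 without library 2. The small excess of D-biased pairs thus turned towards A with centring, a pseudocount of 1, a log2 ratio of at least 1.5 and without library 2. Apart from the FPKM minimum of 10, 21 A-biased and 23 D-biased calls were kept in every fit at the same thresholds.

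The mean log2 ratio of D over A was 0.00296 with a pseudocount of 1, 0.0237 with 0.1, 0.0634 at an FPKM of 10 or more, 0.00461 without the high-numbered pairs, -0.0355 with centring, -0.0284 with medians, and 0.00988 to 0.0139 with a library left out. Its gap to the D02 pairs was 0.00300 with a pseudocount of 1 (-0.0121 to 0.0163 over libraries), 0.0313 with 0.1, 0.00745 without the high-numbered pairs (-0.00509 to 0.0203), -0.0173 at an FPKM of 10 or more, -0.0243 with medians, and 0.00845 to 0.0216 with a library left out. The gap in level was -0.171 with a pseudocount of 0.1, -0.129 at an FPKM of 10 or more, -0.121 with medians, and -0.167 to -0.161 with a library left out; without the filter it was 0.338 and with all D02 pairs from either list it was 0.358, where unexpressed pairs enter the D02 side. Of 459 values of 43 named pairs under alternatives, 427 kept their call, 19 lost it and 13 gained it, and none became biased in the other direction. With 3 libraries and no counts, small differences could not be resolved.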
